A study of Mus musculus with 26 samples.

Results

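A set of 10 genes of endoplasmic reticulum (ER) stress and of the growth of the secretory apparatus was followed in mouse knee joints after destabilization of the medial meniscus (DMM), a surgical model of osteoarthritis. They were the ER chaperones and folding helpers Hspa5, Hsp90b1, Creld2, Sdf2l1 and Manf, the stress transcription factors Xbp1, Atf4 and Ddit3, and the membrane-bound transcription factors Creb3l1 and Creb3l2. The list is a list of names, with no threshold on the signal of a gene. They were represented by 20 of the 45101 probe sets on the array, each annotated to 1 of these symbols alone, and so made up 10 of 18194 genes with such a probe set. For each gene the probe set with the highest mean log2 signal over all arrays stood for the gene, and the others were reported beside it.

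RNA came from male C57BL/6 mice, and each array held the pooled RNA of 3 mice. The groups were DMM joints taken 2, 4, 8 or 16 weeks from surgery, sham-operated joints of the same 4 time points, and unoperated joints at time 0. Mice were 12 weeks old at time 0 and 14, 16, 20 and 28 weeks old at the later time points. Every group had 3 pools except DMM at 2 weeks, which had 2, for 26 arrays in all. The tissue was a block of the medial joint that held articular cartilage, subchondral bone, meniscus, capsule and synovium together. A difference between such blocks can come from the number of cells of a type or from the RNA per cell, and these cannot be told apart.

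Proteins made for export fold in the ER with the help of chaperones. When unfolded proteins build up, sensors in the ER membrane start the unfolded protein response, which raises chaperones through factors such as Xbp1 and, where stress lasts, Ddit3 (CHOP) downstream of Atf4. Creb3l1 and Creb3l2 are related transcription factors that sit in the ER membrane and are freed by the proteases Mbtps1 and Mbtps2. In mice, Creb3l2 is known for the secretion of cartilage matrix by chondrocytes, with the coat protein gene Sec23a among its targets, and Creb3l1 for collagen secretion by osteoblasts.

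The bases upstream of the gene starts were searched for the ER stress response element (ERSE), the site through which ATF6 and Xbp1 act on chaperone genes, spelled CCAAT, then 9 bases of any kind, then CCACG, and read on both strands. RefSeq promoters on GRCm38.p6 were used for 8 of the 10 genes, all but Creb3l1 and Manf. In the 250 bases before the start, 3 of the 8 held an ERSE, namely Hspa5, Hsp90b1 and Creld2, against 0.113% of 32851 promoters of the same length. The element is known from chaperone genes, so its presence in these 3 is a description and no test of enrichment. Hspa5 had 1, at 65 to 47 bases before the start, and Hsp90b1 had 2, at 212 to 194 and, on the other strand, at 107 to 89 bases. Creld2 had 1 on the other strand, at 126 to 108 bases. The shorter ERSE-II (ATTGG, 1 base of any kind, then CCACG, in 0.0304% of promoters), the cyclic AMP response element (TGACGTCA, 1.55%) and the core of the amino acid response element (TGATGCAA, 0.791%) matched none of the 8. The core of the unfolded protein response element (TGACGTG, 1.65%) matched Hspa5 alone. These motifs share no letters with each other in the matches found, and a match is a description of the letters and not a bound site. The chaperones with an ERSE are shown beside Creb3l2, a gene called after DMM whose window held none of the motifs, with matches in capitals. The window of Hspa5 lies at chr2:34771840-34772089 on the plus strand and that of Hsp90b1 at chr10:86705445-86705694 on the minus strand. That of Creld2 lies at chr15:88819396-88819645 on the plus strand and that of Creb3l2 at chr6:37442149-37442398 on the minus strand. The annotated Creb3l2 gene reaches to chr6:37442276, so part of its window lies inside the gene and only the rest is upstream of it.
Hspa5: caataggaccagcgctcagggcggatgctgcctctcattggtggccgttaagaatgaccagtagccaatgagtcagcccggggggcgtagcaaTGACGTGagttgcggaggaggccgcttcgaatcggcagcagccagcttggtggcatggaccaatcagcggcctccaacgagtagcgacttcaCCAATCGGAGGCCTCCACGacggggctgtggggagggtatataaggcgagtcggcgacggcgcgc
Hsp90b1: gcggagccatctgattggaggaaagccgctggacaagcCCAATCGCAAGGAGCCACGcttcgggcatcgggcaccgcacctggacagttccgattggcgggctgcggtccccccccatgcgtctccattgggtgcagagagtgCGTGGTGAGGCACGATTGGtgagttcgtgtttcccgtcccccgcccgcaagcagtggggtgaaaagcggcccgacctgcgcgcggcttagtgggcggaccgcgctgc
Creld2: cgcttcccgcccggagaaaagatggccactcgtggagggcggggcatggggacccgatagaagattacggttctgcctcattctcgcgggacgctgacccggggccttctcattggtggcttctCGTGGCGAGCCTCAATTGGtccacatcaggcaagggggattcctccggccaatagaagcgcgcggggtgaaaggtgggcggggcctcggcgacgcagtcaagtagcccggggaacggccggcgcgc
Creb3l2: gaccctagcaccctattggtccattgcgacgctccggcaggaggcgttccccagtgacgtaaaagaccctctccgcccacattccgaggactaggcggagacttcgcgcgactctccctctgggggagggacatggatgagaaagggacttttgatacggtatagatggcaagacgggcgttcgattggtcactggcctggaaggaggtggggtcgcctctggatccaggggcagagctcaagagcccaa

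Defining markers of the labelled tissue were above the brightness cut of 7.93 (log2) that was set for testing: 10 of 10 chondrocyte markers, 7 of 7 measured osteoblast and osteocyte markers and 9 of 9 fibroblast and synovium markers. Skeletal muscle markers, which such a block can also hold, averaged between 9.97 and 13.57 over the 26 pools, and both extremes were sham pools at 2 weeks. No pair of arrays held identical values. All 10 genes passed the brightness cut with the probe set that stood for them, as did 19 of their 20 probe sets. The number of arrays limits the precision.

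The largest differences between DMM and sham among the 10 genes were those of Creb3l2 and Creb3l1 at 4 weeks, and both were higher in DMM joints. Creb3l2 had log2 signals of 9.29, 9.87 and 9.44 in DMM pools at 4 weeks, against 8.86, 8.59 and 8.94 in sham pools. All 3 DMM pools lay above all 3 sham pools. The log2 difference was 0.74 ± 0.16 (SE), a 1.67-fold higher signal, with an adjusted p of 0.00349 by limma over all 22482 probe sets tested. Its second probe set also differed, by 0.38 (adjusted p = 0.0242). For Creb3l1 at 4 weeks the DMM pools had 9.56, 9.68 and 9.94, against 9.28, 8.88 and 8.97 for sham. These pools also did not overlap, and the log2 difference was 0.68 ± 0.17 (1.6-fold, adjusted p = 0.011). The Creb3l1 call did not hold without sham replicate 2 (adjusted p = 0.0684) or without DMM replicate 3 (adjusted p = 0.0638), while that of Creb3l2 held without any single pool.

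These were 2 of the 10 genes, and at 4 weeks 13.2% of the 11488 genes tested were called higher and 7.05% lower in DMM joints, so the count of 2 is near that of the array as a whole. None of the 10 was called lower. The pools did not overlap for 4 of the 10, all higher in DMM, beside 20.8% of all genes higher and 18.7% lower. The median of the 10 log2 differences was 0.26, beside a median of -0.02 over all genes tested, and 9 of the 10 were above 0.

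**Figure D1:**
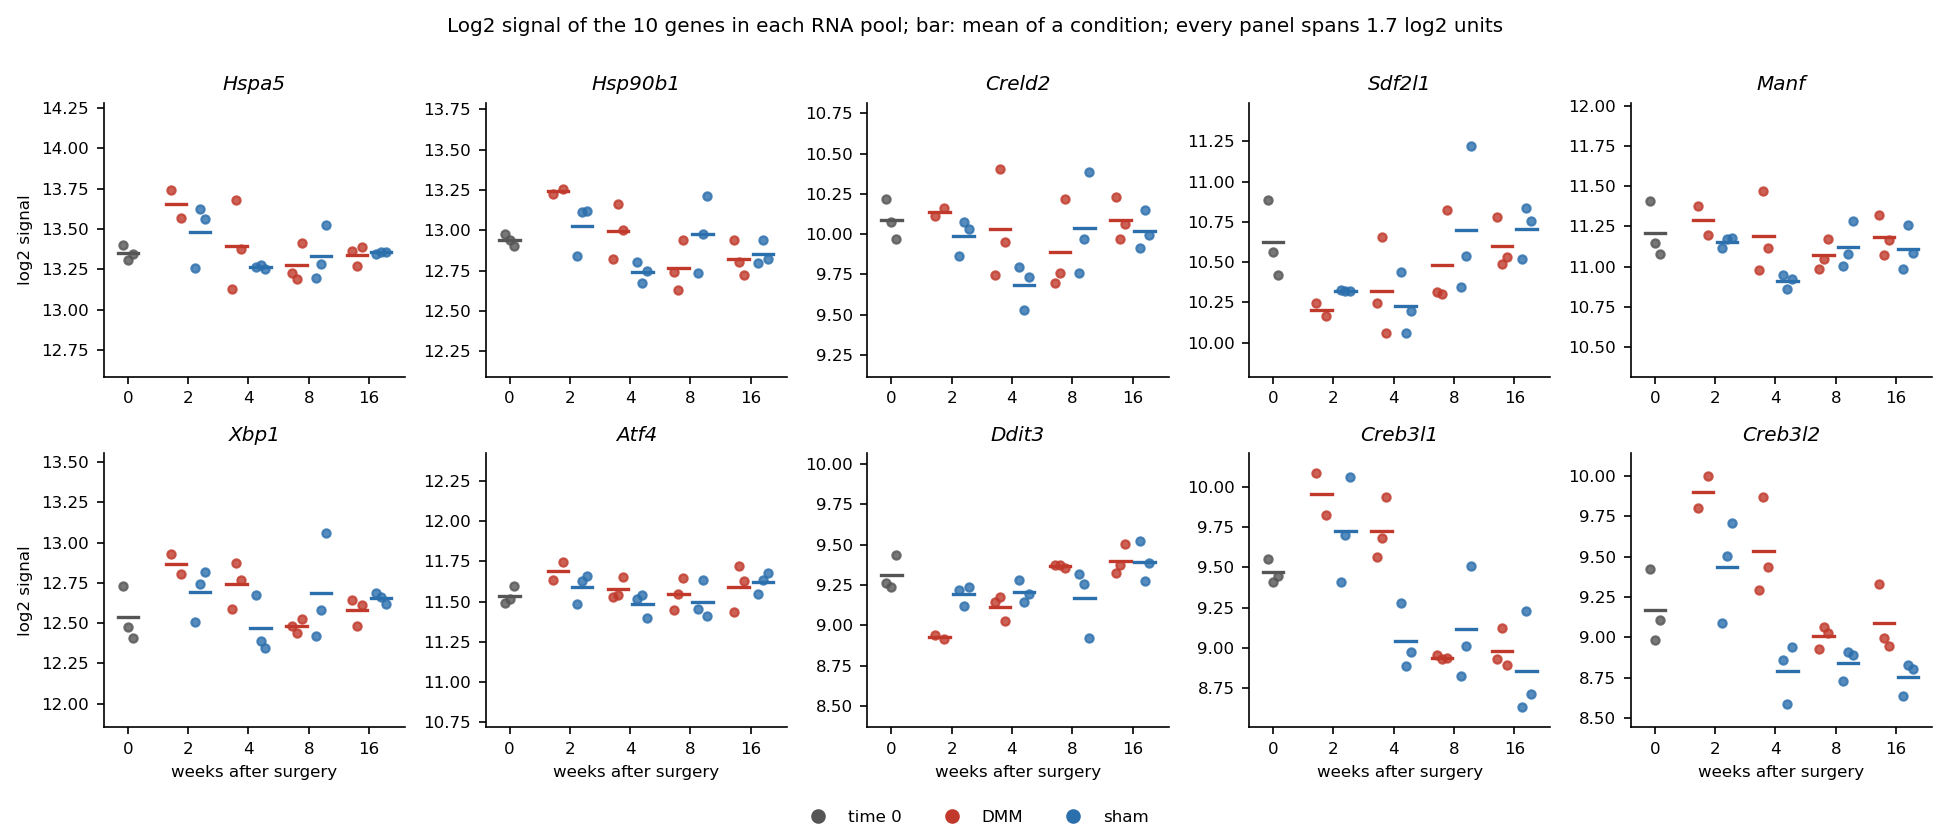
Log2 signal (y axis) of each of the 10 genes in every RNA pool by weeks after surgery (x axis), with time 0 in grey, DMM in red and sham in blue, each point 1 pool and each bar the mean of a condition. All panels have the same span, and the points of Creb3l1 and Creb3l2 spread most widely, with DMM pools above sham pools at 4 weeks. Those of Atf4 span 0.348 log2 units over all 26 pools.

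At 2 weeks the DMM pools of Creb3l2 had 9.80 and 10, against 9.09, 9.51 and 9.71 in sham pools. The DMM pools lay above the sham pools, but the sham pools were themselves spread by more than the difference, which was 0.47 ± 0.17 (adjusted p = 0.146). Creb3l1 at 2 weeks had 10.08 and 9.83 in DMM pools and 9.41, 9.70 and 10.06 in sham pools, which overlapped (0.23 ± 0.20, adjusted p = 0.589). No member was called at 2 weeks by limma, where 2 had an unadjusted p under 0.05 and 1.91% of all genes were called higher and 0.914% lower. Without sham replicate 3 at 2 weeks, Creb3l2 was called (0.60, adjusted p = 0.0449).

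At 8 weeks the 3 DMM pools of Creb3l1 sat at 8.96, 8.93 and 8.94, against 8.82, 9.01 and 9.51 in sham pools. The DMM pools lay inside the range of the sham pools, and the difference was -0.175 ± 0.175. Creb3l2 at 8 weeks had 8.93, 9.06 and 9.03 in DMM pools and 8.73, 8.91 and 8.89 in sham pools, which did not overlap, with a difference of 0.16 ± 0.16 (adjusted p = 0.667). At 16 weeks it had 9.33, 8.99 and 8.94 in DMM pools and 8.64, 8.83 and 8.80 in sham pools. Again every DMM pool was above every sham pool, by 0.33 ± 0.16 on average (adjusted p = 0.663). Creb3l1 at 16 weeks had 8.93, 9.12 and 8.89 in DMM pools and 8.63, 9.23 and 8.71 in sham pools, with the sham pools on both sides of the DMM pools (0.125 ± 0.175). At 8 weeks 2 of the 10 genes, Creb3l2 and Ddit3, were higher in DMM without overlap and none lower, beside 6.56% and 7.74% of all genes. At 16 weeks Creb3l2 alone was, beside 12.3% of all genes higher and 6.81% lower. Averaged over the 4 time points, Creb3l2 was higher in DMM joints by 0.43 ± 0.08 (1.34-fold, adjusted p = 0.0011) and was the only one of the 10 genes called, beside 12.5% of all genes called higher and 6.57% lower. It was called in this average without any 1 of the 23 operated pools. In the same average 9 of 9 fibroblast and synovium markers were called higher, with a median of 0.51. In each week their mean level was higher in every DMM pool than in every sham pool. The same held for the brightest Creb3l2 probe set. At 2 weeks the markers had 13.765 to 13.865 in DMM pools, against 12.82 to 13.58 in sham pools. At 8 weeks the markers had 12.52 to 12.64 in DMM pools, against 12.12 to 12.38 in sham pools, and at 16 weeks 12.52 to 12.80 in DMM pools, against 11.76 to 12.07 in sham pools. The part of these cells in the Creb3l2 difference was not tested. The second probe set of Creb3l2 was not called in the average (0.15 ± 0.06, adjusted p = 0.085). In that probe set the DMM and sham pools overlapped at 8 weeks (0.04) and at 16 weeks, where the sign was the opposite (-0.085). Creb3l1 averaged 0.22 ± 0.09 (adjusted p = 0.109) and was called without sham replicate 3 at 8 weeks (0.265, adjusted p = 0.0348), sham replicate 3 at 2 weeks (0.0384) or sham replicate 2 at 16 weeks (0.0399).

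At 8 weeks no gene on the array was called in either direction (0%), and at 16 weeks 0.0522% were called higher and 0% lower, so the absence of calls among the 10 genes at these weeks is shared with nearly all genes. In each of these weeks 1 of the 10 had an unadjusted p under 0.05.

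**Figure D2:**
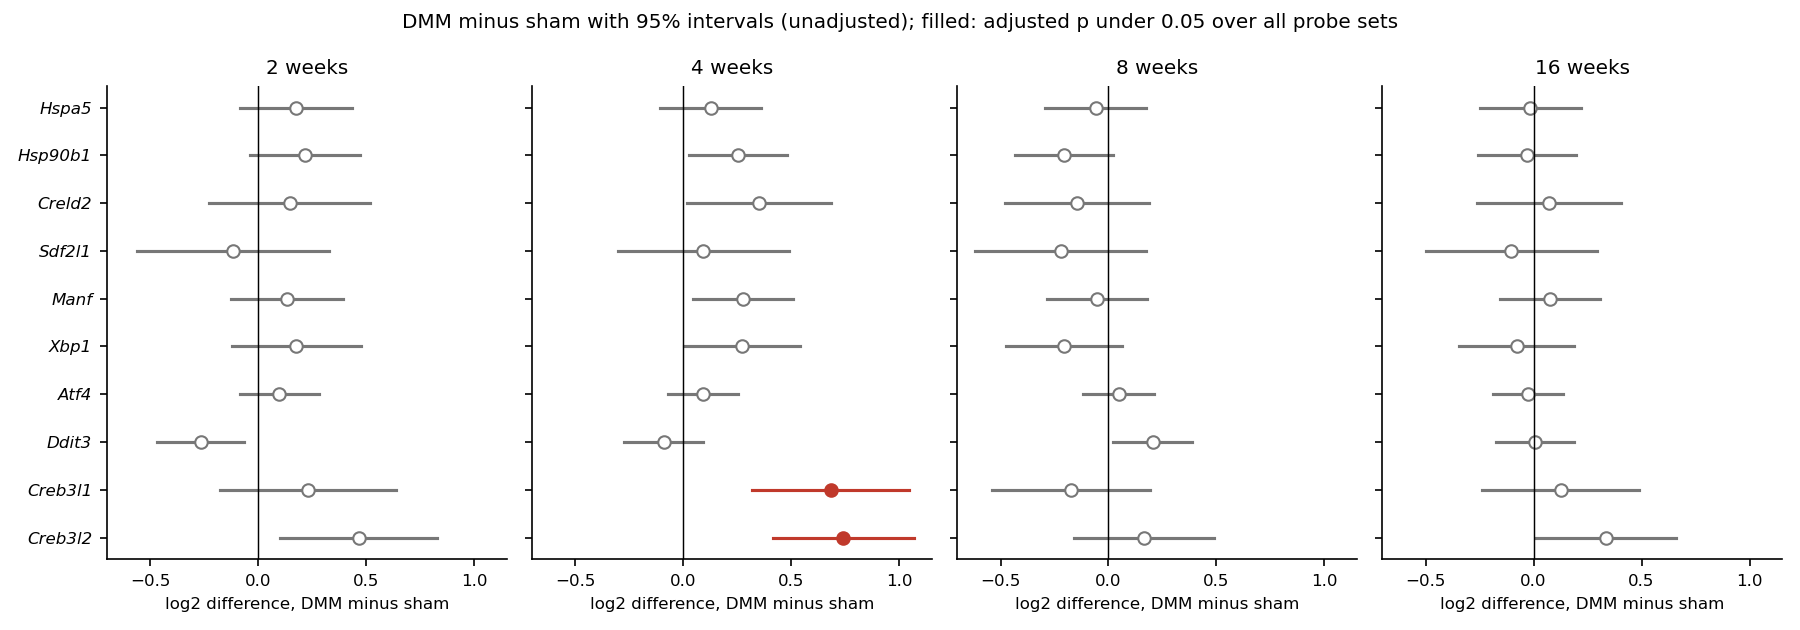
Log2 difference, DMM minus sham (x axis), of the 10 genes (y axis) at 2, 4, 8 and 16 weeks, with points for the limma estimate, lines for its unadjusted 95% interval and filled red points for an adjusted p under 0.05. The 2 filled points are Creb3l1 at 0.68 and Creb3l2 at 0.74, both at 4 weeks.

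Late sham joints, of 16 weeks, had less Creb3l1 signal than the younger, unoperated joints of time 0. Age and the sham operation differ together in this comparison and cannot be told apart. Creb3l1 had log2 signals of 8.63, 9.23 and 8.71 in sham pools at 16 weeks and 9.55, 9.41 and 9.45 at time 0. No sham pool reached the lowest time 0 pool, and Creb3l1 fell by 0.61 ± 0.17 (adjusted p = 0.0439). It was the only one of the 10 called in this comparison, in which 1.49% of all genes were called higher and 4.91% lower. The call is a narrow one and was lost without any of 5 of the 6 pools compared (adjusted p of 0.0746 to 0.236), sham replicate 2 being the exception. It was also lost with the muscle covariate, with the ratio of 3 prime to 5 prime Gapdh signal, a measure of RNA integrity, as a covariate, and with no brightness cut. Creb3l2 had 8.64, 8.83 and 8.80 in sham pools at 16 weeks and 9.42, 8.98 and 9.11 at time 0, again with no overlap (-0.42 ± 0.16, adjusted p = 0.127). These were the 2 of 10 genes with pools apart, beside 16.3% of all genes lower and 20.1% higher. In the second Creb3l2 probe set the sham and time 0 pools overlapped (-0.08, adjusted p = 0.678). In the same comparison 10 of 10 chondrocyte markers and 6 of 7 osteoblast and osteocyte markers were called lower, and the part of these cell types in the lower Creb3l1 signal was not tested.

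Against time 0, Creb3l2 was higher in DMM joints at 2 weeks, with 9.80 and 10 in DMM pools and 9.42, 8.98 and 9.11 at time 0. The pools did not overlap and the difference was 0.73 ± 0.17 (adjusted p = 0.0037). Its second probe set differed by 0.39 (adjusted p = 0.0256). Without DMM replicate 3 the adjusted p of the first was 0.055. Creb3l1 had 10.08 and 9.83 in DMM pools at 2 weeks, likewise above 9.55, 9.41 and 9.45 at time 0, and was not called (0.49 ± 0.20, adjusted p = 0.067). Creb3l2 was 1 of 10 genes called higher and Ddit3 1 of 10 called lower here, while 16.4% of all genes were called higher and 16.5% lower. Pools lay apart for 6 of the 10 genes higher in DMM and for 2 lower, beside 25.8% and 32.2% of all genes. At 4, 8 and 16 weeks none of the 10 genes was called between DMM and time 0 by limma, with 2, 1 and 1 genes at an unadjusted p under 0.05. The shares of all genes called in these weeks were 7.86%, 0.087% and 0.522% higher and 1.85%, 0.714% and 1.33% lower. Creb3l1 was the gene whose pools lay apart in each of these weeks, higher in DMM at 4 weeks and lower at 8 and 16 weeks, and Ddit3 lay lower at 4 weeks. The shares of all genes apart were 17.5%, 12.9% and 15.2% higher and 9.64%, 10.9% and 8.8% lower.

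The ER chaperones were not called between DMM and sham joints in any week by limma, and 3 of the 5 had an unadjusted interval above 0 at 4 weeks. Hspa5, the main Hsp70-type chaperone of the ER lumen (BiP), had 13.13, 13.68 and 13.38 in DMM pools at 4 weeks and 13.27, 13.28 and 13.25 in sham pools. The sham pools lay within 0.03 of each other and inside the range of the DMM pools, and the difference was 0.13, with a 95% interval from -0.11 to 0.36. Hsp90b1, its Hsp90-type partner (GRP94), had 12.82, 13.17 and 13 in DMM pools and 12.80, 12.68 and 12.75 in sham pools. The pools did not overlap, by a margin far smaller than the spread of the DMM pools, and the difference was 0.25 (interval 0.03 to 0.48, adjusted p = 0.104).

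Manf, a secreted ER stress protein, had 10.98, 11.47 and 11.11 in DMM pools at 4 weeks, against 10.95, 10.86 and 10.92 in sham pools. These also did not overlap, with a difference of 0.28 (interval 0.05 to 0.51, adjusted p = 0.085). Creld2, an ER protein that is induced with matrix protein misfolding in mouse cartilage, had 9.75, 10.40 and 9.95 in DMM pools and 9.80, 9.53 and 9.73 in sham pools. DMM replicate 1 was below a sham pool, and the difference was 0.35 (interval 0.02 to 0.68, adjusted p = 0.128). Sdf2l1, which works with Hspa5 in the ER lumen, had 10.25, 10.66 and 10.06 in DMM pools and 10.44, 10.06 and 10.20 in sham pools, which overlapped (0.09, interval -0.30 to 0.49).

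DMM replicate 1 was the lowest DMM pool at 4 weeks for 4 of these 5 chaperones, and replicate 2 the highest for all 5. Without replicate 1, Manf (0.38, adjusted p = 0.0227), Hsp90b1 (0.34, adjusted p = 0.0386) and Creld2 (0.49, adjusted p = 0.0399) were called, and 5 of the 10 genes instead of 2. With quantile normalization Hsp90b1 was called as well (0.34, adjusted p = 0.0365). The other probe sets of Hspa5 differed by 0.23 and 0.10 and that of Hsp90b1 by 0.04 at 4 weeks, all with the same sign and none called.

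At 2 weeks the chaperones differed among themselves in sign, and none was called. Hspa5 had 13.74 and 13.57 in DMM pools, against 13.26, 13.62 and 13.56 in sham pools, which overlapped (0.175 ± 0.125). Hsp90b1 had 13.23 and 13.26 in DMM pools and 12.84, 13.11 and 13.12 in sham pools. The DMM pools lay above the sham pools for Hsp90b1, Creld2 and Manf, with differences of 0.22, 0.15 and 0.13. Sdf2l1 had 10.25 and 10.16 in DMM pools and 10.33, 10.32 and 10.32 in sham pools, so that it lay below the sham pools, by 0.12. Together with Creb3l2 and Ddit3 this made 4 of 10 genes with DMM pools all higher and 2 with DMM pools all lower at 2 weeks, beside 14.5% and 15.2% of all genes.

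At 8 weeks the highest value of all 5 chaperones among the 6 operated pools was in sham replicate 3, as it was for Xbp1 and Creb3l1. This was widest for Sdf2l1, with 10.31, 10.30 and 10.83 in DMM pools and 10.35, 10.54 and 11.22 in sham pools. The 11.22 of that sham pool was the highest Sdf2l1 signal of all 26 arrays. Without it no gene of the 10 was called at 8 weeks either. At 16 weeks the differences of the 5 chaperones, by their brightest probe sets, ran between -0.10 and 0.08, and the pools of DMM and sham overlapped for each. The other Hsp90b1 probe set had -0.23, with overlap. Those of Hspa5 had -0.05 and -0.185, the latter with all DMM pools below all sham pools, and none was called.

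Among the stress transcription factors no gene was called between DMM and sham. Xbp1, whose unconventionally spliced mRNA encodes an activator of chaperone genes, had 12.59, 12.87 and 12.77 in DMM pools at 4 weeks and 12.68, 12.39 and 12.35 in sham pools. Sham replicate 1 lay above DMM replicate 1, and the difference was 0.27 (interval 0.01 to 0.54, adjusted p = 0.137). All 4 of its probe sets were above 0 at 4 weeks, by 0.14 to 0.27, and none was called. At 2 weeks Xbp1 had 12.93 and 12.80 in DMM pools and 12.51, 12.75 and 12.82 in sham pools, and at 8 weeks 12.48, 12.44 and 12.52 in DMM pools and 12.42, 12.58 and 13.06 in sham pools. The pools overlapped in both weeks, with differences of 0.18 and -0.21 and with sham replicate 3 the highest sham pool each time. The array does not show which form of the Xbp1 mRNA was present.

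Atf4, the factor made when general translation is slowed under stress, varied least of the 10. It had 11.53, 11.54 and 11.65 in DMM pools at 4 weeks, against 11.52, 11.54 and 11.40 in sham pools, which overlapped (0.09, interval -0.07 to 0.25). Atf4 is controlled mainly at translation, which these arrays do not measure. A second Atf4 probe set was higher by 0.24 at 4 weeks (adjusted p = 0.059) and was called in DMM at 2 weeks against time 0 (0.41, adjusted p = 0.0035), where the first was not (0.15, adjusted p = 0.199). It was also called in DMM at 4 weeks against time 0 (0.30, adjusted p = 0.0375) and for the effect at 4 against 8 weeks (0.49, adjusted p = 0.0497). In the 8-week DMM pools it lay below all sham pools without being called (-0.25, adjusted p = 0.271), and likewise in those of 16 weeks (-0.15, adjusted p = 0.767). The remaining one lay below the brightness cut and was not tested.

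Ddit3, the factor linked to cell death under lasting ER stress, was the 1 gene of the 10 called lower in DMM joints in any comparison, at 2 weeks against time 0. At 2 weeks it had 8.94 and 8.91 in DMM pools and 9.22, 9.12 and 9.24 in sham pools. Both DMM pools lay below all sham pools, and the difference of -0.27 ± 0.10 was not called (adjusted p = 0.136). A dimmer Ddit3 probe set had -0.03 between DMM and sham at 2 weeks, with overlapping pools. Against time 0, where pools had 9.26, 9.24 and 9.44, Ddit3 fell by 0.39 ± 0.10 in DMM joints at 2 weeks (adjusted p = 0.0053). The dimmer Ddit3 probe set did not share this change (0.06, adjusted p = 0.83). At 4 weeks it had 9.14, 9.17 and 9.03 in DMM pools and 9.28, 9.14 and 9.19 in sham pools, which overlapped (-0.09, interval -0.27 to 0.09). At 8 weeks the order was the other way, with 9.38, 9.38 and 9.36 in DMM pools and 9.32, 9.26 and 8.92 in sham pools (0.20 ± 0.09, adjusted p = 0.357), and at 16 weeks the difference was 0.01.

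In sham joints at 4 weeks all 10 genes, by their brightest probe sets, had a mean below that of time 0. Their median log2 difference was -0.25 beside 0.015 over all genes. For 6 of them the sham pools lay wholly below the time 0 pools and for none above, beside 9.56% and 14.7% of all genes. None was called by limma, and 4 had an unadjusted p under 0.05, with 0.47% of all genes called higher and 0.557% lower. Manf, for example, had 10.95, 10.86 and 10.92 in sham pools at 4 weeks and 11.40, 11.15 and 11.08 at time 0 (-0.30, adjusted p = 0.185). Of the other tested probe sets, those of Atf4 (0.06) and Ddit3 (0.095) lay above time 0, as did 1 of Xbp1 (0.01). The rest lay below. The same sham pools are the comparison for DMM at 4 weeks. Set against time 0 the DMM pools at 4 weeks differed by a median of 0.04, with Creb3l1 at 0.26 and Creb3l2 at 0.36, Manf at -0.02 and Hsp90b1 at 0.05. At 2 and 8 weeks no gene of the 10 was called between sham and time 0 by limma, with 0 and 1 at an unadjusted p under 0.05, beside 1.64% and 0.461% of all genes called higher and 0.374% and 0.575% lower. Pools lay apart for 1 gene at 2 weeks, Sdf2l1, and for 1 at 8 weeks, Creb3l2, both lower in sham, beside 6.5% and 8% of all genes lower and 8.41% and 10.9% higher.

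The effect of DMM at 4 weeks was set against that at 8 weeks as a difference of differences. For 9 of the 10 genes it was larger at 4 weeks, with a median of 0.39 against -0.01 over all genes, and 7 had an unadjusted p under 0.05. None was called, beside 1.43% of all genes called higher and 0.2% lower. Creb3l1 had the largest value, at 0.86 ± 0.25 (adjusted p = 0.0615), followed by Creb3l2 at 0.58 ± 0.22 (adjusted p = 0.109). Hsp90b1 had 0.46 ± 0.15 (adjusted p = 0.0821). Without sham replicate 1 at 8 weeks, Creb3l1 (1.002, adjusted p = 0.0193), Hsp90b1 (0.58, adjusted p = 0.0198), Xbp1 (0.61, adjusted p = 0.0283) and Ddit3 (-0.37, adjusted p = 0.0457) were called, and without DMM replicate 1 at 4 weeks Creb3l1, Hsp90b1 and Creb3l2 were. Against 2 and 16 weeks no gene on the array was called (0% in each direction), with 0 and 1 of the 10 at an unadjusted p under 0.05.

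A separate set of steps asked whether the replicate time courses ran alike, without a test. A gene passed when each of the 3 time courses reached a signal log ratio of 0.5 in size in at least 1 week, when at least 2 of 3 pairs of time courses correlated at 0.7 or more, and when at least 2 pairs lay within a distance of 0.6 for DMM against sham, or 0.81 for sham against time 0. Pools were joined into time courses by their replicate number. DMM replicate 1 has no value at 2 weeks and entered with 3 weeks. Creb3l1 alone of the 10 passed for DMM, where 1.75% of genes passed, and Creb3l2 alone passed for sham, where 2.06% did. The second Creb3l2 probe set passed for neither. Creb3l2 reached the ratio for DMM in all 3 time courses but had only 1 of 3 pairs above the correlation. None of the other 8 genes reached the ratio in all time courses of either kind.

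The wider secretory pathway was described with 8 lists of 102 measured genes, 98 of them tested. At 4 weeks 29 of the 98 were called higher in DMM joints and 2 lower (29.6% higher, beside 13.2% of all genes), with a median of 0.14. No list was tested as a set. Of 11 genes for retrieval to the ER and the COPI coat 6 were called higher and none lower, with a list median of 0.34. Kdelr3, a receptor that returns escaped ER proteins, averaged 10.67 ± 0.29 in DMM pools at 4 weeks, against 9.68 ± 0.28 in sham pools (SD, n = 3 each). The pools did not overlap, and the log2 difference of 0.995 was the largest of the 98 (adjusted p = 0.00255). Arf4, a small GTPase of the Golgi, differed by 0.53 (adjusted p = 0.0074). Kdelr2, named for its high signal, had a difference of 0.37 and was not called (adjusted p = 0.0546).

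Of 17 tested genes of the COPII coat and its cargo receptors 8 were called higher and none lower, with a median of 0.20. Sec24d, a cargo-binding coat subunit, averaged 11.10 ± 0.26 in DMM pools at 4 weeks, against 10.35 ± 0.17 in sham pools, without overlap (0.75, adjusted p = 0.0075). Sec23a, its partner in the inner coat, averaged 11.01 ± 0.17 in DMM pools and 10.43 ± 0.12 in sham pools (0.58, adjusted p = 0.0013). Sec23a was also among 4 of the 98 genes whose DMM effect was called larger at 4 than at 8 weeks (0.74, adjusted p = 0.0351). The other 3 were Surf4, a cargo receptor, Copb1, a COPI subunit, and Mbtps2, and they were named after their values were seen. Sar1b and Tmed10, the genes of this list named for their high signal, had -0.175 and -0.01, neither called.

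Other ER chaperones and folding enzymes had 6 of 18 called higher, none lower, and a median of 0.20. They included the disulfide isomerases P4hb (0.51, adjusted p = 0.0017) and Pdia4 (0.44, adjusted p = 0.0137) and the lectin chaperone Calr (0.35, adjusted p = 0.0388). Ppib, a cyclophilin of collagen folding, had 0.08 and was not called. Of 19 translocon and signal peptide genes 2 were called higher, Tram2 (0.46, adjusted p = 0.0328) and Ssr3 (0.35, adjusted p = 0.0064), and 1 lower. Sec61b and Tram1, parts of the channel named for their high signal, had -0.09 and -0.02. The translocon list had a median of 0.08.

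Among the stress sensors and the proteases that free Creb3l1, Creb3l2 and ATF6, 2 of 6 were called higher at 4 weeks, and both were the proteases, Mbtps2 (0.37, adjusted p = 0.0025) and Mbtps1 (0.17, adjusted p = 0.0455). Mbtps2 averaged 9.75 ± 0.04 in DMM pools and 9.38 ± 0.02 in sham pools (SD, n = 3 each). Mbtps1 was also the 1 gene of the 98 called at 2 weeks (0.30, adjusted p = 0.0267). The sensor kinase Eif2ak3 (PERK) had 0.17 and was not called (adjusted p = 0.108). The list median was 0.15.

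ER-associated degradation had 3 of 12 called higher, none lower, and a median of -0.01, with Edem3 at 0.27 (adjusted p = 0.0072) and Sel1l at 0.24 (adjusted p = 0.0172). Vcp and Derl1, which draw proteins out of the ER, had -0.03 and -0.10. Targets of Atf4 and Ddit3 had the lowest median of the lists, at -0.12, with 1 of 13 called higher and 1 lower. The higher one was Atf3, itself a stress factor, at 0.42 (adjusted p = 0.0100), and the lower one Phgdh, an enzyme of serine synthesis, at -0.30 (adjusted p = 0.0195). Cebpb and Ppp1r15a, named for their high signal, had 0.23 and -0.53 and were not called. Of the 2 tested relatives of Creb3l1 and Creb3l2, Creb3 was called higher (0.34, adjusted p = 0.0248) and Creb3l3, known from liver, was not (-0.14).

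**Figure D3:**
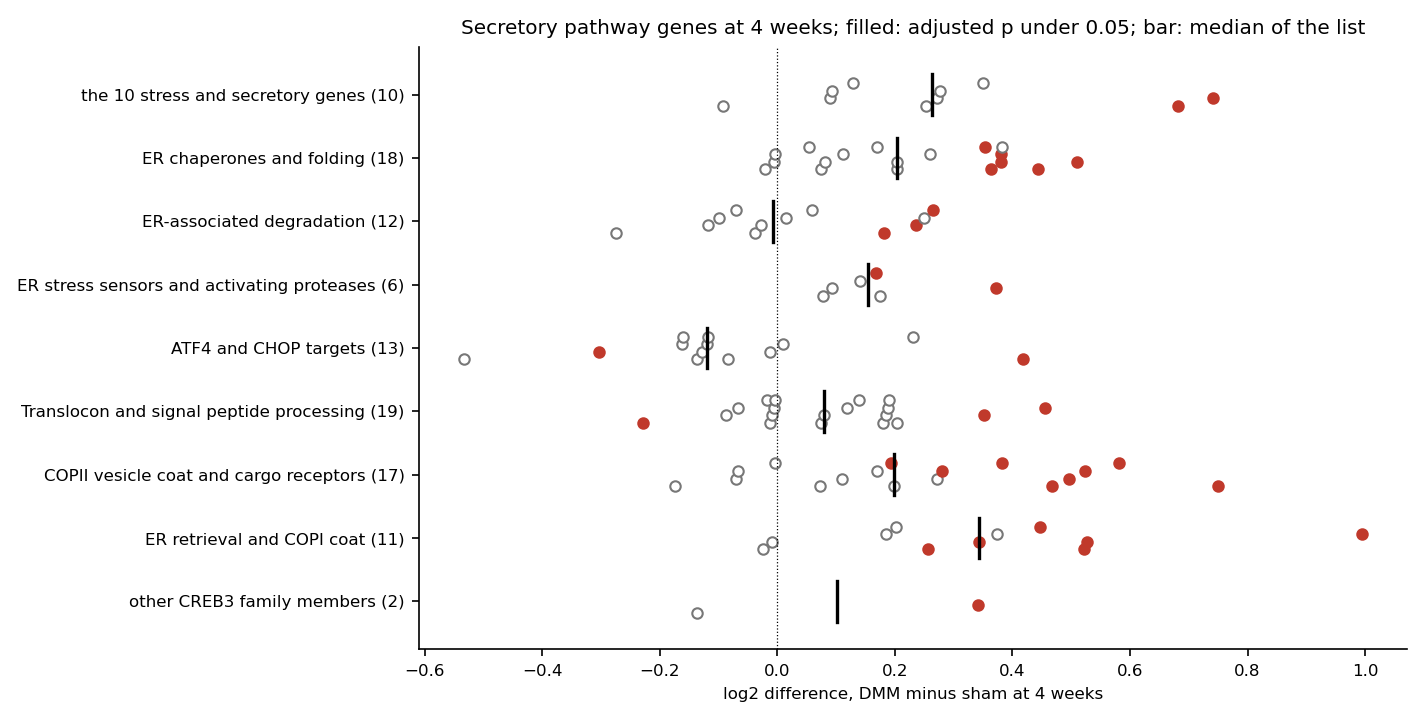
Log2 difference, DMM minus sham at 4 weeks (x axis), of the 10 genes and of 8 lists of secretory pathway genes (rows, number tested in brackets), with filled red points for an adjusted p under 0.05 and a black bar for the median of each row. The COPI and COPII rows hold 6 and 8 filled points, all to the right of 0, while the median of the Atf4 and Ddit3 targets lies at -0.12.

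At 2 weeks 1 of the 98 pathway genes was called higher than in sham joints and none lower (1.02% higher, below the 1.91% of all genes), and at 8 and 16 weeks none was called in either direction by limma. In sham joints at 16 weeks 3 of the 98 were called lower than at time 0 and none higher, a smaller share than the 4.91% of all genes called lower. Set against time 0, DMM joints at 2 weeks had 40 of the 98 called higher (40.8%) and 7 lower, beside 16.4% and 16.5% of all genes. DMM joints at 4 weeks had 10 called higher (10.2%) and 3 lower against time 0, beside 7.86% of all genes higher. The 3 genes called lower in sham joints at 16 weeks were Kdelr3 (-1.001, adjusted p = 0.0044), Sec31a (-0.45, adjusted p = 0.0219) and Sec63 (-0.27, adjusted p = 0.0147). Of these, Sec31a and Sec63 were named after their values were seen.

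Over the 26 pools the 10 genes did not vary as one. Creb3l1 and Creb3l2 spanned 1.45 and 1.42 log2 units, Sdf2l1 1.16, and the other 7 between 0.348 for Atf4 and 0.872 for Creld2. Of the 45 pairs, Pearson correlations of log2 signal ran from -0.71 to 0.90 with a median of 0.38, as a description of pools that share groups and muscle content. Creld2 and Manf had the highest, at 0.90, then Hspa5 and Hsp90b1 at 0.86, Hsp90b1 and Xbp1 at 0.82, and Creb3l1 and Creb3l2 at 0.82. Of the 11 pairs below 0, 8 held Ddit3, which had -0.71 with Creb3l1 and -0.69 with Hsp90b1. After the mean of each condition was taken away, Creb3l1 and Creb3l2 correlated at 0.40, while the highest pairs were Hsp90b1 with Creld2 and Creld2 with Sdf2l1, both at 0.90.

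The genes whose signal was most like each of the 10 over the 26 pools came from 11488 tested genes and are given with r and no test. Nearest to Creb3l2 were Praf2 (0.97), Pmepa1 (0.97) and Loxl3 (0.96), the last a lysyl oxidase of the matrix. Nearest to Creb3l1 were Tmem263 (0.97), Rcn1 (0.97), an ER calcium-binding protein, and Serpinh1 (0.97), the collagen chaperone of the ER. The chaperones lay near other ER genes in part. Hspa5 was nearest to Dnajc3 (0.90), its ER co-chaperone, then Tmem30a (0.86) and Mgat2 (0.85), an N-glycan enzyme. Hsp90b1 was nearest to Tmem167 (0.93), Txndc17 (0.91) and Lrrc59 (0.91).

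Pdia6, a disulfide isomerase, was the nearest gene to both Creld2 (0.88) and Manf (0.87). Creld2 was followed by Emb (0.86) and Txndc12 (0.82), and Manf by Gtf3c6 (0.85) and Hsph1 (0.84). Xbp1 was nearest to Krtcap2 (0.90), a subunit of the N-glycosylation complex, Hspa13 (0.90) and Ckap4 (0.88), and Sdf2l1 to Hdc (0.91), Mrpl19 (0.90) and Lman2l (0.89). Ddit3 had Ypel5 (0.88), Rgs10 (0.87) and Mgll (0.85). Atf4 had the weakest likeness, with Osgin2 (0.78), Rufy3 (0.69) and Slc16a9 (0.69).

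Markers of several cell types moved together with some of these genes. With fibroblast and synovium markers, Ddit3 (-0.61) and Sdf2l1 (-0.47) correlated below 0 over the 26 pools and the rest of the 10 above 0. At 4 weeks 7 of 9 fibroblast and synovium markers and 4 of 5 tested endothelial markers (a list with Kdr and Cdh5) were called higher in DMM joints, with medians of 0.71 and 0.48, and 4 of 5 tested adipocyte markers (a list with Fabp4 and Adipoq) were called lower. The mean of the 9 fibroblast and synovium markers, such as Prg4 and Dcn, was 13.11, 13.65 and 13.50 in DMM pools and 12.74, 12.46 and 12.81 in sham pools. As with Creb3l2, the DMM pools lay above the sham pools. This list spanned 11.76 to 13.87 over the 26 pools, and Creb3l2 correlated with it at 0.91. The chondrocyte markers, such as Comp and Col2a1, had 11.46, 11.31 and 11.98 in DMM pools at 4 weeks, against 11.20, 10.86 and 11.29 in sham pools, with 1 of 10 called higher. Of the 6 lists compared with the 10 genes, Creb3l1 correlated most with osteoblast and osteocyte markers, at 0.87, then with chondrocyte markers at 0.86 and fibroblast and synovium markers at 0.80. The osteoblast and osteocyte markers had 11.40, 11.25 and 11.63 in DMM pools at 4 weeks, against 11.30, 11.16 and 11.14 in sham pools, which overlapped. The part of these cell types in the higher Creb3l1 and Creb3l2 signals was not tested.

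Plasma cells, which depend on Xbp1, were looked at in the same way. Their 8 markers, such as Jchain and Sdc1, averaged 9.22, 9.09 and 9.21 in DMM pools at 4 weeks, against 9.26, 9.09 and 9.18 in sham pools, which overlapped, and 1 of the 6 tested was called higher while Tnfrsf17 and Prdm1 lay below the brightness cut. The markers did not move as one, since Sdc1 averaged 11.31 ± 0.39 in DMM pools at 4 weeks, against 10.25 ± 0.19 in sham pools, while Jchain averaged 12.42 ± 0.16 in DMM pools, against 12.77 ± 0.20 in sham pools (SD, n = 3 each). Neither gene's pools overlapped. Xbp1 correlated with the mean of these markers at -0.49 over the 26 pools, and with fibroblast and synovium, chondrocyte and osteoblast and osteocyte markers at 0.43, 0.325 and 0.295. The mean of the 8 muscle markers, such as Myh4 and Acta1, was 12.37, 11.43 and 12.13 in DMM pools at 4 weeks, against 12.79, 12.88 and 12.86 in sham pools, and none of the 8 was called. With the muscle mean as a covariate, Creb3l1 and Creb3l2 were called at 4 weeks as without it. Of the remaining lists at 4 weeks, 2 of 8 neutrophil and marrow myeloid markers (a list with S100a8 and Ngp) and 1 of 6 macrophage markers (a list with Csf1r and Mrc1) were called lower. For osteoblasts and osteocytes 1 of 7 markers (a list with Col1a1 and Ibsp) and for osteoclasts 1 of 5 tested markers (a list with Acp5 and Mmp9) was called higher, and none of the tested B cell precursor (a list with Ebf1 and Cd79b) or erythroid markers (a list with Slc4a1 and Alas2) was called.

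**Figure D4:**
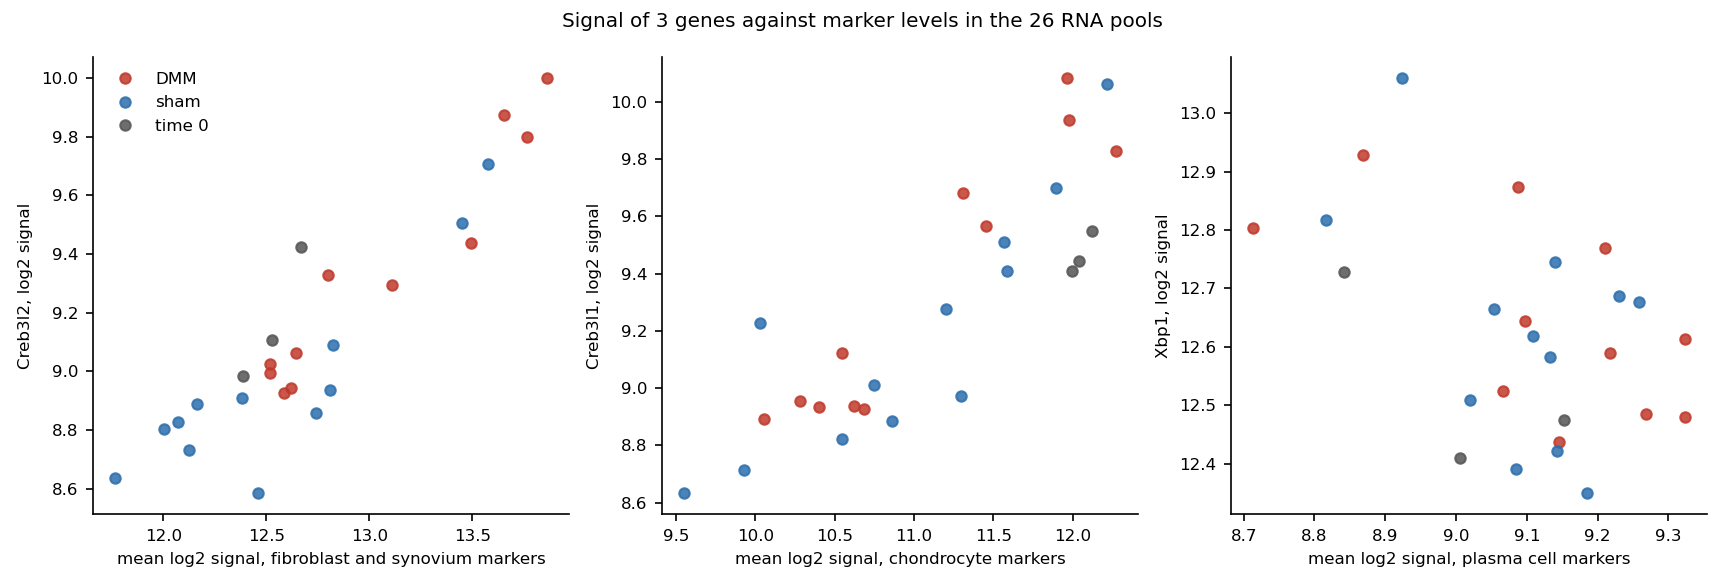
Log2 signal (y axis) of Creb3l2, Creb3l1 and Xbp1 against the mean log2 signal of fibroblast and synovium, chondrocyte and plasma cell markers (x axes) in the 26 RNA pools, DMM in red, sham in blue and time 0 in grey. The correlations of the lists drawn are 0.91 for Creb3l2, 0.86 for Creb3l1 and -0.49 for Xbp1. Other lists not drawn also correlated, such as osteoblast and osteocyte markers with Creb3l1 at 0.87 and fibroblast and synovium markers with Xbp1 at 0.43.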

How the data were processed

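Log2 signals of 26 Affymetrix whole-genome mouse arrays were analysed as deposited. The authors imaged the arrays, normalized them across arrays by systematic variation normalization and deposited the log2 signal of each probe set, and each array held RNA of 3 mice. Detection p-values were not used here. Array medians lay between 7.90 and 7.95, and a probe set was tested when its average over the arrays exceeded the median of these, 7.93, which left 22482 probe sets and 11488 genes.

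Probe sets were named through the platform annotation, in which 34958 had 1 symbol, 932 several and 9211 none. All 9 conditions were fitted together with limma 3.58.1 in R 4.3.3 (lmFit and eBayes, 17 residual degrees of freedom), and p-values were Benjamini-Hochberg adjusted over all tested probe sets, with calls at 0.05. Intervals are 95% intervals and not adjusted. P-values measure the spread between pools. Per the study's methods pools were joined into replicate time courses at random, and the main limma fit did not use the replicate numbers as a pairing. The consistency steps did join pools into time courses by these numbers. Fits were tested on simulated data.

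The 10 genes, the gene lists and the motifs were chosen with earlier results of these data known. The text names the 10 genes, from each pathway list the 2 brightest genes and the 2 called genes with the largest difference at 4 weeks, from cell type lists the 2 brightest, and for each gene the 3 most correlated others. Exceptions are said to be so. Alternatives changed the brightness cut, conditions fitted, array weights, replicate block, normalization, muscle and Gapdh 3 prime to 5 prime covariates and the probe set chosen, and left out each pool. RefSeq promoters were from GRCm38.p6.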

Additional observations from a re-analysis of the deposited data

Results flagged for a closer look

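Differences between time points were set apart where every DMM pool moved one way from the sham mean in 1 week and every DMM pool the other way in another week. None of these differences between weeks was tested, and the 2-week arm holds 2 pools. The share of all genes that meet this rule was not counted, and the rule leaves out the spread of the sham pools. Pairs of weeks with 4 weeks are left out here, since there the difference was tested in the limma fit and called for none of the 10 genes, although Hsp90b1, Xbp1, Creb3l1 and Ddit3 at 4 against 8 weeks and Xbp1 at 4 against 16 weeks also had all DMM pools on opposite sides of the sham mean. Between 2 and 8 weeks, Hsp90b1 had mean signal log ratios of 0.22 and -0.21 (difference 0.42), Xbp1 of 0.18 and -0.21 (0.38), Creb3l1 of 0.23 and -0.17 (0.41) and Ddit3 of -0.27 and 0.20 (-0.47). Between 2 and 16 weeks, Xbp1 had 0.18 and -0.08 (0.25). Between 8 and 16 weeks, Creb3l1 had -0.17 and 0.12 (-0.30), with its DMM pools inside the range of the sham pools in both weeks. The sham mean at 8 weeks holds replicate 3, which was the highest of the sham pools for Hsp90b1, Xbp1 and Creb3l1 and the lowest for Ddit3.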

How the results depend on the processing

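Creb3l2 was called higher in DMM joints at 4 weeks, and over the 4 weeks on average, under all 8 alternative settings and without any single pool. Creb3l1 was called at 4 weeks under all 8 settings. For both genes the most variable probe set is also the brightest, so that setting could not differ from the main fit. The other Creb3l2 probe set was called by limma at 4 weeks (adjusted p = 0.0242) and not in the average (adjusted p = 0.085). Of 2560 comparisons of single genes or counts with an alternative, 2352 kept their direction and side of the threshold or stayed within 1.5 times the count, and 1 turned round: Ddit3 in DMM at 2 weeks against time 0 was 0.055 (adjusted p = 0.83) with its more variable probe set.

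Array weights moved most counts of called genes among the 10, to 6 for DMM against sham at 4 weeks, 2 for the average, 1 and 2 for sham at 8 and 16 weeks against time 0, 6, 5, 1 and 1 for DMM against time 0 in the order of the weeks, and 6 and 3 for the effect at 4 against 8 and against 16 weeks. The weights did not converge and gave sham replicate 2 at 2 weeks no weight, so these counts rest on a doubtful fit. The muscle covariate gave 1 for DMM against sham at 2 weeks (Creb3l2, 0.54, adjusted p = 0.0258), 0 for sham at 16 weeks, 6 and 1 for DMM against time 0 (2 and 4 weeks), and 3 for the effect at 4 against 8 weeks. No brightness filter and the Gapdh covariate each gave 0 for sham at 16 weeks. Fitting only the compared conditions gave 5, 1 and 1 for DMM at 2, 8 and 16 weeks against time 0. The most variable probe sets gave 1 for DMM at 4 weeks against time 0 and 1 for the effect at 4 against 8 weeks. Requiring a ratio of at least 1 left 0 genes passing the consistency steps for DMM and 0 for sham. The cause of these shifts was not tested.

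Leaving out 1 pool at a time gave 0 to 1 called genes for DMM against sham at 2 weeks, 1 to 5 at 4 weeks, 1 to 2 for the average, 0 to 1 for sham at 16 weeks against time 0, 1 to 3 for DMM at 2 weeks against time 0, 0 to 4 for the effect at 4 against 8 weeks, and 1 to 2 genes passing the DMM consistency steps. The 3 calls for DMM at 2 weeks came without time 0 replicate 1, which added Xbp1 (0.42, adjusted p = 0.0433).

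With the replicate number as a block the counts were the same, 2 at 4 weeks, 1 for the average, 1 for sham at 16 weeks, 2 for DMM at 2 weeks against time 0 and 0 elsewhere. Deviations of same-numbered DMM and sham pools of one week correlated at a median of 0.28 over 11 pairs, with 6 over 0.1. Differently numbered pools of one week had a median of -0.114 over 22 pairs, with 5 over 0.1, so same-numbered pools were more alike. The numbers were not taken as a pairing in the main fit, since the study joined pools into time courses at random. The cause of this likeness was not tested.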
